A study of Mus musculus with 25 samples.

Results

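Genes for Paneth cell defensins and other secreted products were followed across the jejunum of mouse pups: 28 alpha-defensin genes, 11 defensin pseudogenes and the 6 genes Lyz1, Mmp7, Pla2g2a, Itln1, Ang4 and Nupr1. These 45 genes were taken by name, as every row whose symbol began with Defa and a number or with Defa-ps plus the 6 listed symbols, out of 35723 genes with a count in at least 1 library. Poly(A) RNA was sequenced in 25 libraries, 5 in each of 5 groups, and the pups had been assigned to the groups at postnatal day 14. Controls suckled normally and were taken at day 21. The other 4 groups were weaned early, at day 15, and received no supplement (EW), both 2'-fucosyllactose and lacto-N-neotetraose (EW+HMOs), the first of these by itself (EW+2'-FL) or the second by itself (EW+LNnT). Both compounds are human milk oligosaccharides (HMOs), and the first carries a fucose that the second lacks. Strain, doses, the feed after weaning and the age at sampling of the early-weaned pups are not given in the sources used here. Libraries are named by group and replicate as Control1 to Control5, EW1 to EW5, HMOs1 to HMOs5, FL1 to FL5 and LNnT1 to LNnT5. Whether the 5 libraries of a group came from 5 animals is not stated in the labels, and p-values therefore cover only the spread between these samples, which may be technical.

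Paneth cells sit at the base of small intestinal crypts, between the stem cells, and in mice they mature during the weeks after birth. Their granules release alpha-defensins (called cryptdins in mice), small peptides that disrupt bacterial membranes, together with the cell-wall enzyme lysozyme (Lyz1) and the secreted phospholipase Pla2g2a, which acts on bacterial phospholipids. The mouse metalloprotease Mmp7 (matrilysin) cuts the inactive defensin precursors into active peptides. Itln1 is an intelectin, a lectin that binds microbial sugars, and Ang4 is a secreted ribonuclease with antimicrobial activity. Nupr1 is different in kind, a small nuclear protein induced by cell stress that is not secreted. Wnt signalling through TCF factors is known to drive cryptdin genes in Paneth cells.

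The defensin rows lie side by side on chromosome 8 (21515561 to 22225487 in GRCm39, the build of the files), and many are near copies of one another. Comparison of their annotated transcripts put the 28 defensin genes into 13 sequence groups, in which a gene was joined to another at 95% identity or where 50% of its 150-base windows were found word for word in the other. Defa2, Defa20, Defa32 and Defa33 (98.8% to 99.8% identical), Defa21 and Defa22 (99.3%), and Defa5 and Defa34 (98.7%) formed 3 close groups. Looser groups were Defa3, Defa17, Defa23, Defa30 and Defa31 (89.0% to 97.3%), Defa35, Defa36, Defa37 and Defa41 (93.3% to 97.5%), and Defa29, Defa39, Defa42 and Defa43 (92.5% to 96.4%). Defa24, Defa25, Defa26, Defa27, Defa28, Defa38 and Defa40 each stood alone. All 150-base windows of Defa2, Defa31, Defa33, Defa37 and Defa42 recurred in another defensin, against 10.7% in Defa22 and none in Defa24, Defa26, Defa27, Defa29, Defa30, Defa35, Defa38, Defa39, Defa40 and Defa41. How reads shared by such copies were assigned is not given in the sources used here. Single rows of the close groups are therefore uncertain, and the groups are also given as sums. The same holds for rows of the looser groups with many shared windows, such as Defa3 (84.3%), Defa17 (88.7%), Defa23 (87.0%), Defa36 (93.7%) and Defa43 (95.0%).

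Upstream sequence was available for 21 of the 45 genes, 16 of them defensins. The 4 promoters shown were chosen with the counts in view, each from another sequence group. The groups of Defa22 and Defa2 were alike in that both had a higher mean in EW than in control. Each run is the 250 bases before the RefSeq transcript start (GRCm38.p6), read 5′ to 3′ in the direction of the gene, and the capitals mark TATAAA or the reverse complement of CTTTGAT, one of the letter runs bound by TCF factors. Defa22 is at chr8:21162027-21162276 and Defa2 at chr8:21378267-21378516, both on the plus strand, Defa31 is at chr8:21191323-21191572 on the plus strand, and Defa42 is at chr8:21456518-21456767 on the minus strand.

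Defa22: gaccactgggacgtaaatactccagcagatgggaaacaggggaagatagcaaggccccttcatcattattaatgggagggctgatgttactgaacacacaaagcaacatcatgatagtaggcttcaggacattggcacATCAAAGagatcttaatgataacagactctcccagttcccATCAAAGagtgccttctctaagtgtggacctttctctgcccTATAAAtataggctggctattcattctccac

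Defa2: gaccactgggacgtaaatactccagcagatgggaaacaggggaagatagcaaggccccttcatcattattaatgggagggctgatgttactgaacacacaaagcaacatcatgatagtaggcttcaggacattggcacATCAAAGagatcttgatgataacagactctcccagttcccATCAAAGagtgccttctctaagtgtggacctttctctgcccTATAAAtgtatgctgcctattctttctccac

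Defa31: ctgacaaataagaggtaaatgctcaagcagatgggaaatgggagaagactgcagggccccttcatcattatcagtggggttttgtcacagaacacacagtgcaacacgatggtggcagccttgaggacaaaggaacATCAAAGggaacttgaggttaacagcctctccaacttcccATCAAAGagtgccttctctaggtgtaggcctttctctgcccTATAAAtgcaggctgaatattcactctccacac

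Defa42: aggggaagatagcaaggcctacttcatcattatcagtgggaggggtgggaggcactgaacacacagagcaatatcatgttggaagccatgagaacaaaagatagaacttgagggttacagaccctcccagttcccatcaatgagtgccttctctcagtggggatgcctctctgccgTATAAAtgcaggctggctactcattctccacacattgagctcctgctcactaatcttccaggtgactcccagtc

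TATAAA on either strand was found in 15 of the 16 defensin promoters (93.8%), against 13.6% of all 32851 promoters of the same length, searched from 250 bases before to 50 bases after the start. CTTTGAT, or the same run with AA, TA or TT as its last letters, was found on either strand in 13 of the 16 (81.2%), against 16.9% of all promoters. Those 13 were all of the defensin promoters on the plus strand, and the 3 on the minus strand, Defa38, Defa42 and Defa43, held none of these letters. CAGCTG, an E-box that is in none of the runs printed, was found in 1 of the 16 (6.2%), against 16.3% of all promoters. Over the same window the promoter of Defa22 was identical to that of Defa21, 97.7% identical to that of Defa2, 81.7% to that of Defa31 and 57.0% to that of Defa42. Each window was set from the RefSeq start, and TATAAA lay at base -31 in Defa22, -33 in Defa31 and -74 in Defa42. The identities therefore depend on where the start was set as well as on the letters. Defa41, on the plus strand with TATAAA also at -74, was 63.7% identical to Defa22 and 79.0% to Defa42. Such matches describe the letters and say nothing of binding, and the 16 promoters share their descent, so they are not independent of one another.

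Compared per length of transcript, the highest of the 45 genes had a mean over the 25 libraries of 815 FPKM (fragments per kilobase and per M mapped) for Defa24 and 639.8 for Lyz1. Defa30, Defa17, Defa3 and Defa31 followed at 498, 448, 407 and 380.4 FPKM, then Itln1 at 376 and Defa23 at 365. The other defensin genes ranged from 262 FPKM in Defa38 down to 2.23 in Defa35, 0.459 in Defa28, 0.269 in Defa25 and 0.00897 in Defa27, whose counts came from 1 library. Ang4 lay at 60.2 FPKM, Mmp7 at 21.2, Pla2g2a at 10.99 and Nupr1 at 2.15. Among the pseudogenes Defa-ps6 reached 19.1 FPKM, Defa-ps7 4.39 and Defa-ps1 2.46, and the other 8 had at most 0.553. All the markers fixed for Paneth cells (Lyz1, Mmp7, Defa24, Defa5, Itln1 and Ang4) had counts in every library. They are themselves among the 45 genes, and Nupr1, Defa35 and Defa-ps7 also had counts in all 25 libraries. Their presence is therefore no test of the label of the list. The ileal markers Fabp6, Slc10a2 and Fgf15 summed to at most 4.28 counts per M (CPM) in any library, with Fabp6 at 0 in 4 of the 5 groups. The filter on low counts was passed by 37 of the 45 genes: 27 defensin genes (not Defa27), the pseudogenes Defa-ps1, Defa-ps6, Defa-ps7 and Defa-ps18, and the 6 others.

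Total counts per library ran from 58.7 to 89.6 M, and the 45 genes took 0.0897% to 1.26% of them. Sex markers moved with the groups: Y-linked transcripts (Ddx3y, Kdm5d, Eif2s3y and Uty) were found in 1 of 5 control libraries, Control2, which also held Xist, and in 4 of 5 EW, 3 of 5 EW+HMOs, 4 of 5 EW+2'-FL and 2 of 5 EW+LNnT libraries. FL1, LNnT1 and LNnT2 stood apart on the first principal component at 119, 172 and 146, followed by EW1 at 57.4, against at most 11.3 in the rest. Mitochondrial genes took 8.98% to 9.57% of the counts in those 3 libraries and 5.46% to 7.93% in the others. Pancreatic acinar transcripts took 0.0777% to 0.909% of the counts in Control2, Control3, EW1, FL5, LNnT1 and LNnT2, and at most 0.0016% elsewhere. Their part in the results was not tested beyond the values given beside them below.

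Early weaning without supplement came with higher Pla2g2a, Mmp7 and Defa22 than suckling, while the most abundant defensins differed by less than the spread. Of the 37 genes tested, 3 rose and none fell (edgeR quasi-likelihood test, Benjamini-Hochberg adjusted p under 0.05 over all 22131 genes tested), a share of 8.11% beside 0.443% of all genes called higher and 0.511% called lower. The median log2 change of the 37 was 0.54, against 0.02 over all genes tested, with 33 positive and 4 negative. The 37 are not independent of one another, since paralogs share sequence and most are made by the same cells, and in bulk tissue fewer cells of a type and less RNA per cell cannot be told apart.

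Pla2g2a (chr4:138559171-138562497, plus strand), the bacteria-killing phospholipase, measured 6.32, 5.04, 5.83, 2.103 and 5.85 CPM in Control1 to Control5. In EW1 to EW5 it measured 10.7, 16.6, 13.9, 23.8 and 8.55 CPM. Every EW library lay above every control library, and Control4 was the lowest of all 25. The means were 5.03 ± 1.698 in control and 14.7 ± 5.92 CPM in EW (SD, n = 5 each), a log2 change of 1.57 ± 0.26 (standard error; 95% interval 1.04 to 2.11; adjusted p = 0.00242). The row rests on a transcript that the files annotate as a loss-of-function variant of a coding gene, and several inbred mouse strains are known to carry a disrupted Pla2g2a. Among libraries with Xist and without Y-linked transcripts, Pla2g2a spanned 2.103 to 6.32 CPM in 4 controls and 6.45 to 16.7 in 7 early-weaned libraries of all 4 groups. Pla2g2a was higher in all 20 early-weaned libraries than in any control, so this subset had to split too and is no further check. With a covariate for the Y-linked share the adjusted p was 0.0209. In a fit of the Xist libraries alone the log2 change was 1.52, but this leaves a single EW library, so no call is read from it.

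Mmp7 (chr9:7692091-7699587, plus strand), the protease that activates the mouse defensins, measured 19.6, 14.01, 11.2, 4.61 and 19.4 CPM in the 5 controls. The EW libraries held 25.98, 29.1, 35.3, 53.7 and 26.4 CPM. Again the groups did not overlap, with EW4 the highest library of the 25 and Control4 the lowest. Mean levels were 13.8 ± 6.25 and 34.1 ± 11.6 CPM (SD, n = 5 each), a log2 change of 1.35 ± 0.32 (95% interval 0.69 to 2.0; adjusted p = 0.0389). The adjusted p was above 0.05, so that the call ended, when any 1 of Control2, Control3, Control4, Control5, EW2, EW3, EW4, HMOs4 or HMOs5 was left out (0.0514 to 0.142) and was 0.178 with the Y-linked covariate. Its log2 change stayed between 1.13 and 1.49 over the 25 fits without 1 library.

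Defa22 (ENSMUSG00000074443 in the files) was the defensin that passed, with 25.8, 14.3, 18.7, 5.46 and 28.8 CPM in the controls. EW1 to EW5 held 74.03, 67.7, 40.6, 60.2 and 21.9 CPM. EW5 fell inside the control range and the other 4 EW libraries lay above it. From 18.6 ± 9.31 to 52.9 ± 21.4 CPM (SD, n = 5 each) the log2 change was 1.57 ± 0.35 (95% interval 0.85 to 2.28; adjusted p = 0.027). Without Control2, Control3, Control4, EW2 or EW4 the adjusted p was 0.0562 to 0.0768, without the 6 libraries with pancreatic transcripts 0.15, and with the Y-linked covariate 0.087. Its near copy Defa21 had a log2 change of 1.27 ± 0.33 (adjusted p = 0.0666), which did not pass.

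**Figure D1:**
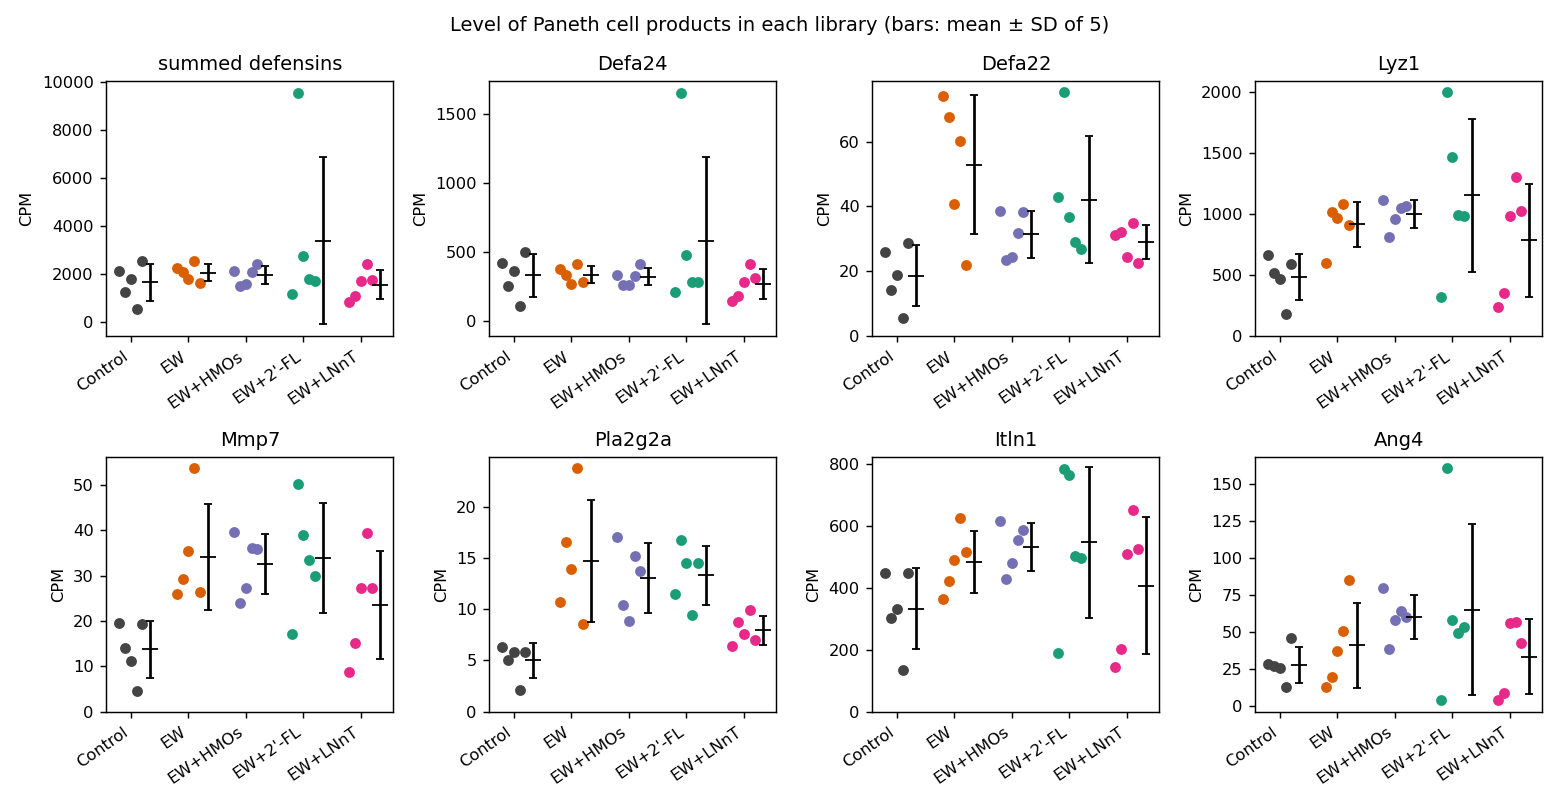
Level in each of the 25 libraries (CPM, linear axes from 0) by group, and the mean ± SD of each group's 5 libraries in black. Pla2g2a and Mmp7 lie higher in all EW libraries than in any control library, Defa24 overlaps in every group, and FL2 stands far above the other libraries in the summed defensins at 9561 CPM.

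Lysozyme did not pass between EW and control. Lyz1 (chr10:117123702-117128773, minus strand) measured 665, 519, 463, 181 and 587 CPM in the controls and 600.2, 1019, 970.2, 1078 and 907 CPM in EW. Only EW1 fell within the control range. The log2 change was 0.95 ± 0.36 (95% interval 0.21 to 1.69; adjusted p = 0.228), on means of 483 ± 185 and 915 ± 187 CPM (SD, n = 5 each). Itln1 (chr1:171345690-171362862, minus strand) held 448, 301, 333, 134 and 449 CPM in the controls and 364, 421, 489, 626 and 515 CPM in EW, a log2 change of 0.57 ± 0.32 (adjusted p = 0.449) with overlapping groups.

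Ang4, the ribonuclease (chr14:52001335-52011047, minus strand), measured 28.5, 27.02, 25.7, 12.9 and 46.4 CPM in the controls. EW1 to EW5 spread more widely, at 13.3, 19.7, 37.2, 50.7 and 85.6 CPM, from the lowest controls' level to above the highest control. The change of 0.56 ± 0.62 did not pass (adjusted p = 0.736). Nupr1 (chr7:126222421-126230033, minus strand), the stress factor, was the 1 of the 6 non-defensin genes with a negative estimate, -0.38 ± 0.27 (adjusted p = 0.563), from 5.85, 7.41, 10.7, 5.30 and 7.99 CPM in the controls and 5.91, 4.67, 6.304, 6.21 and 5.04 CPM in EW.

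As a sum, the defensins overlapped between the groups. Summed over the 39 defensin rows, the controls held 2128, 1272, 1812, 557 and 2529.7 CPM and EW held 2258, 2068, 1804, 2542 and 1625 CPM. Control4 was the lowest of the 25 libraries, while Control5 lay just under EW4, the highest EW library. The log2 ratio of the group means was 0.31, and 0.09 without Control4, which was the lowest control for 24 of the 28 defensin genes. No test was made of sums or of shares here or below, since they add up genes chosen with results in view.

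Defa24, the most abundant defensin, measured 422, 249.7, 364, 110.1 and 503 CPM in the controls and 379, 335, 271, 411 and 285 CPM in EW, with all EW values inside the control range. Its log2 change was 0.07 ± 0.39 (95% interval -0.72 to 0.87; adjusted p = 0.954). Defa30 measured 224, 147, 198, 58.5 and 282 CPM in the controls and 178, 186, 165, 213 and 159.7 CPM in EW (0.03 ± 0.41; adjusted p = 0.984). The intervals of both are wide, and a p that misses the threshold does not show equal levels.

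Defa17 held 220.5, 126, 196, 58.8 and 268 CPM in the controls and 192, 168, 161, 249.8 and 158 CPM in EW, a log2 change of 0.14 ± 0.38 (adjusted p = 0.91). Defa3 held 202, 119, 178, 54.9 and 268 CPM in the controls and 180.5, 149.6, 152, 232 and 148 CPM in EW, a log2 change of 0.12 ± 0.39 (adjusted p = 0.927). Both behaved like Defa24 and Defa30, with the EW libraries inside the wide control range, and the sign of all 4 estimates turned negative without Control4. Most windows of Defa17 (88.7%) and Defa3 (84.3%) recurred in another defensin, so these rows are not separate findings.

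Defa34 and Defa35, which passed in other comparisons, did not pass here. Defa34 measured 22.9, 14.5, 18.3, 6.73 and 24.5 CPM in the controls and 64.9, 43.6, 28.2, 47.6 and 20.03 CPM in EW (1.3 ± 0.41; adjusted p = 0.145), with EW5 inside the control range. Defa35 was far lower, at 0.496, 0.417, 0.291, 0.111 and 0.464 CPM in the controls and 2.62, 0.818, 1.03, 1.16 and 0.512 CPM in EW (1.87 ± 0.57; adjusted p = 0.119), and its groups did not overlap. With Pla2g2a and Mmp7 it made 3 of the 37 genes for which every EW library lay above every control, a share of 8.11% beside 2.6% of all genes tested.

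Among the other defensin genes the estimates ranged from -3.17 in Defa25, which had at most 0.711 CPM in any library, to 1.44 in Defa41, and none passed. The 4 genes of the Defa2 group lay together, at 1.36 (Defa32), 1.25 (Defa20), 1.16 (Defa33) and 1.08 (Defa2), with adjusted p of 0.116 to 0.196. Defa23 and Defa31, in the group of the abundant Defa30, had -0.07 and -0.03. The 4 tested pseudogenes ranged from 0.10 to 0.92. At an unadjusted p under 0.05 there were 13 of the 37, all of them positive, beside 14% of all genes tested.

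**Figure D2:**
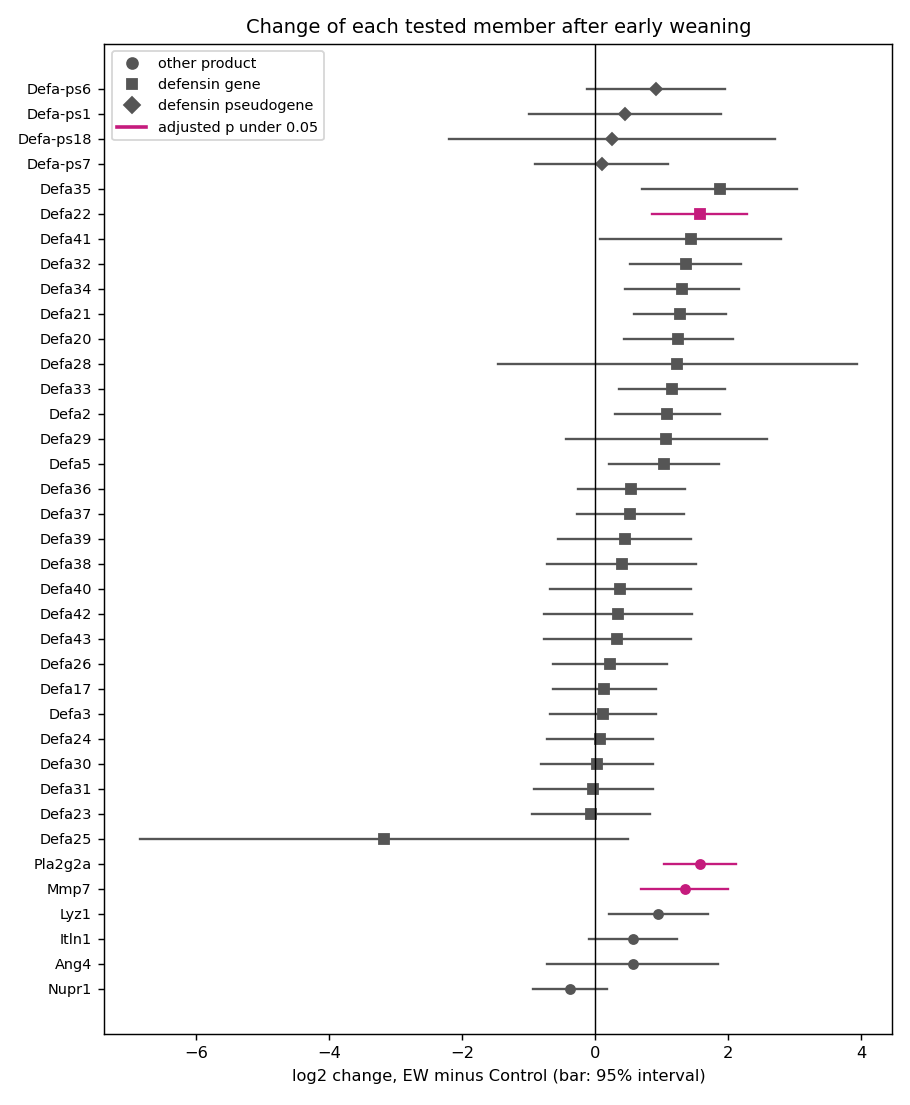
Log2 change from control to EW for the 37 tested genes with its 95% interval from the edgeR fit of all 25 libraries. The genes called, Pla2g2a (1.57), Defa22 (1.57) and Mmp7 (1.35), stand at the high end, and Defa24, Defa30, Defa17 and Defa3 lie near 0.

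The defensins were also set against each other within each library. Defa24 made up 19.9, 19.7, 20.2, 19.8 and 19.9% of the defensin gene counts in Control1 to Control5, a narrow range although the summed level of those libraries spanned 557 to 2529.7 CPM. In EW1 to EW5 its share was 16.8, 16.3, 15.1, 16.3 and 17.6%. No early-weaned library of any group reached the controls: the 20 spanned 15.1 to 18.5%, against 19.7 to 20.2% in the 5 controls.

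The group of Defa3, Defa17, Defa23, Defa30 and Defa31 behaved alike, with 47.2 to 50.1% in the controls and 35.2 to 44.3% in the 20 early-weaned libraries. Counts of 3 further groups were set against those of Defa24. Per 100 counts of Defa24, the Defa2 group had 48.97, 43.8, 46.1, 50.04 and 42.6 counts in the controls and 116, 117, 99.3, 100.3 and 55.5 in EW, and the 20 early-weaned libraries spanned 52.03 to 117 without reaching down to a control. Defa5 and Defa34 together had 9.72 to 11.3 counts per 100 of Defa24 in the controls and 12.4 to 31.1 in the early-weaned libraries. Defa21 and Defa22 had 11.7 to 13.7 in the controls and 8.78 to 40.97 in the early-weaned libraries, where FL2 was the one at the low end, below the controls.

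Libraries with Xist and no Y-linked transcripts are a subset of these. For Defa24 and the Defa2 group the same split had to appear among them, so it is no further check. There Defa24 made up 19.8 to 20.2% in 4 controls and 15.1 to 17.4% in 7 early-weaned libraries, and the Defa2 group had 42.6 to 50.04 and 65.2 to 109.6 counts per 100 of Defa24. In the means of EW over control, the sum of Defa21 and Defa22 was 2.55 times as high, that of the Defa2 group 2.22 times and that of Defa5 and Defa34 2.17 times, while the ratio was 1.02 for Defa24 and 1.00 for the Defa3 group. The sums per group are not touched by how reads were divided inside a group, and no window of 150 bases was shared between Defa24, the Defa3 group and the others. These shares were looked at after the values were seen and carry no test.

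**Figure D3:**
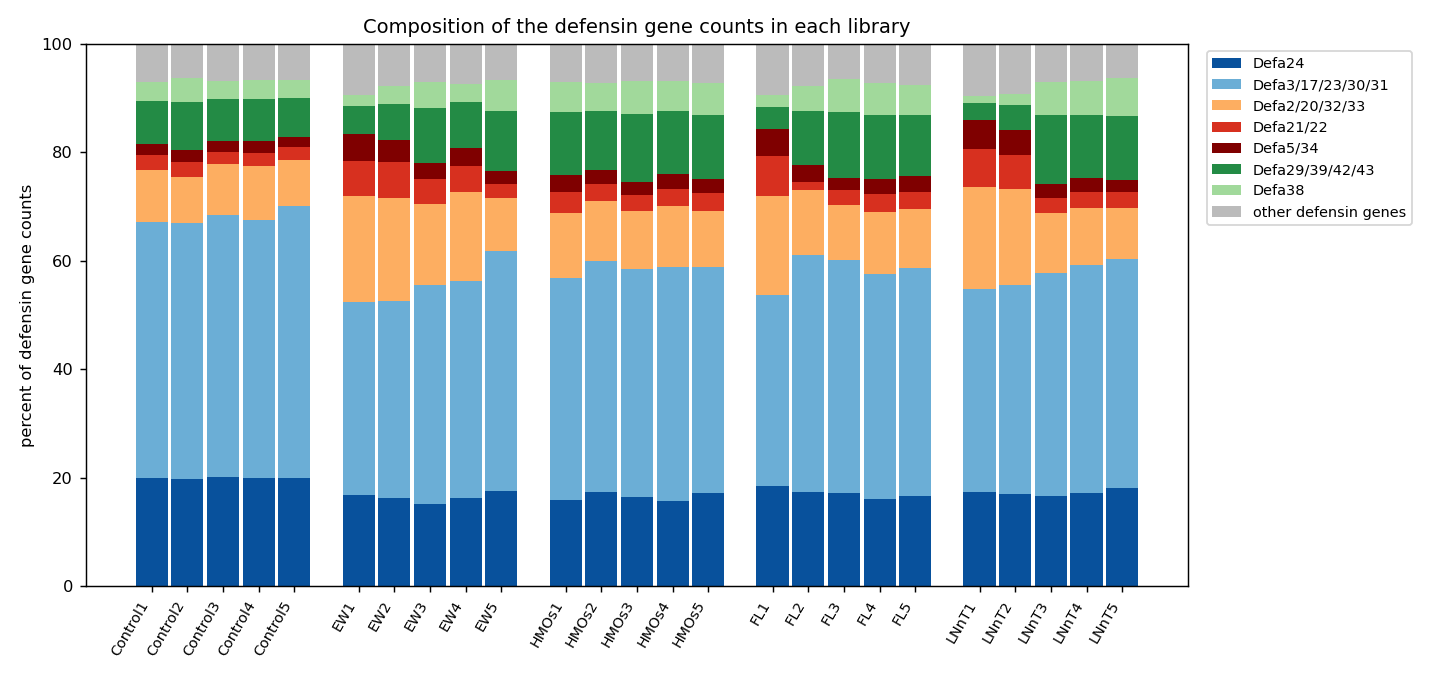
Share of each sequence group in the defensin gene counts of every library (percent, stacked to 100). Defa24 and the group of Defa3, Defa17, Defa23, Defa30 and Defa31 take a larger share in the 5 controls than in any of the 20 early-weaned libraries.

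The 5 defensin genes on the minus strand (Defa29, Defa38, Defa39, Defa42 and Defa43) varied in another way. A promoter was available for 3 of them, without TCF letters, and any link of those letters to the counts was not tested. The 5 genes took 10.4 to 13.3% of the defensin gene counts in the controls. Their share was 4.34 to 7.15% in the 4 libraries highest on the first principal component (FL1, LNnT1, LNnT2 and EW1) and 10.1 to 18.9% in the other 16 early-weaned libraries. The same 4 libraries held 4.22 to 13.3 CPM of Ang4, against 19.7 to 161 in the other 16, and 241 to 600.2 CPM of Lyz1, against 815 to 1998. The Defa2 group stood at 98.95 to 116 counts per 100 of Defa24 in those 4, inside the 52.03 to 117 of the other 16. The top of that range was EW2, and EW+HMOs reached at most 75.3. FL1 (98.95) and LNnT1 (109.6) were the highest of their groups, whose medians were 68.9 and 66.1. For Defa5 and Defa34 together, EW1 (29.7), FL1 (27.8) and LNnT1 (31.1) were the highest of their groups, with medians of 20.6, 17.9 and 15.4. The 4 libraries were picked out by the first component over all genes, which the 45 genes enter too, and what sets them apart was not tested. Row pairs counted almost alike: Defa43 had 98.7 to 101.6 counts per 100 of Defa42, and Defa37 97.4 to 107 per 100 of Defa36, in every library.

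The supplements were then compared with early weaning alone, which asks whether the oligosaccharides altered the response to weaning. None of the 37 genes passed in EW+HMOs, EW+2'-FL or EW+LNnT against EW in edgeR, and none did in DESeq2 or in voom with library weights. Of all genes tested, 0% passed in edgeR for EW+HMOs, 0% for EW+2'-FL and 0.172% for EW+LNnT. The shares in DESeq2 and voom are not given. At an unadjusted p under 0.05 there were 2, 3 and 3 of the 37, beside 4.16%, 5.42% and 11.4% of all genes. Median log2 changes of the 37 were -0.09, 0.42 and -0.38, against -0.02, 0.04 and -0.01 over all genes.

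Pla2g2a measured 17.02, 10.4, 8.799, 15.2 and 13.7 CPM in HMOs1 to HMOs5, 11.5, 16.7, 14.5, 9.39 and 14.5 CPM in FL1 to FL5 and 6.45, 8.75, 7.598, 9.88 and 6.96 CPM in LNnT1 to LNnT5. The LNnT libraries lay lower than most EW libraries, but LNnT2 and LNnT4 overlapped EW5. Against EW the log2 changes were -0.09 ± 0.25 for EW+HMOs, -0.16 ± 0.25 for EW+2'-FL and -0.77 ± 0.25 for EW+LNnT, the last with an adjusted p of 0.198 and an interval of -1.3 to -0.25. Mmp7 measured 39.6, 23.9, 27.3, 36.1 and 35.8 CPM in EW+HMOs, 17.1, 50.1, 38.9, 33.3 and 29.96 CPM in EW+2'-FL and 8.75, 15.1, 27.2, 39.3 and 27.3 CPM in EW+LNnT. FL1, LNnT1 and LNnT2 were its low libraries, and its changes against EW were 0.01 ± 0.31, -0.05 ± 0.31 and -0.47 ± 0.31.

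Defa22 measured 38.5, 23.6, 24.5, 31.8 and 38.1 CPM in EW+HMOs, 42.8, 75.2, 36.8, 28.9 and 26.8 CPM in EW+2'-FL and 31.2, 32.2, 24.3, 34.9 and 22.5 CPM in EW+LNnT, where it was more even than in EW. Its changes against EW were -0.70 ± 0.34 (adjusted p = 1), -0.39 ± 0.34 (1) and -0.76 ± 0.34 (0.386). Lyz1 measured 1111, 815, 956, 1049.6 and 1061 CPM in EW+HMOs, 319, 1998, 1467, 992 and 985 CPM in EW+2'-FL and 241, 354, 987, 1306 and 1025 CPM in EW+LNnT. Within EW+2'-FL it spanned a wide range from FL1 to FL2, and within EW+LNnT the libraries LNnT1 and LNnT2 lay far below the other 3. Lyz1 changes against EW were 0.21 ± 0.36, 0.28 ± 0.36 and -0.17 ± 0.36.

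Itln1 measured 615, 428, 480.0, 554 and 588 CPM in EW+HMOs, 189, 783, 766, 503 and 496 CPM in EW+2'-FL and 144, 202, 509.5, 653 and 525 CPM in EW+LNnT. It followed Lyz1 across libraries, low in FL1, LNnT1 and LNnT2. Itln1 per 100 counts of Lyz1 was 58.05 to 76.5 in the controls and 39.2 to 60.6 in the 20 early-weaned libraries. Ang4 had 79.8, 38.7, 58.3, 64.4 and 60.7 CPM in EW+HMOs, 4.22, 161, 58.5, 49.6 and 53.6 CPM in EW+2'-FL and 4.51, 8.72, 56.03, 56.7 and 42.5 CPM in EW+LNnT, with FL1, LNnT1 and LNnT2 the lowest of the 25 libraries. Nupr1 had 4.97, 4.502, 4.31, 4.47 and 3.88 CPM in EW+HMOs, 2.76, 12.7, 4.88, 3.89 and 7.79 CPM in EW+2'-FL and 4.44, 2.96, 6.44, 6.64 and 5.69 CPM in EW+LNnT, with FL2 at the top and every HMOs library below every control, as for 11.4% of all genes.

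The summed defensins measured 2123, 1520.4, 1607, 2089.7 and 2423 CPM in EW+HMOs, 1154, 9561, 2776, 1797 and 1704 CPM in EW+2'-FL and 849.5, 1080.3, 1708, 2405 and 1744 CPM in EW+LNnT. FL2 stood alone above all 25 libraries and was the highest of its group for 27 of the 28 defensin genes. The log2 ratio of the means of EW+2'-FL over EW was 0.72 with FL2 and -0.15 without it. For EW+HMOs over EW it was -0.08 and for EW+LNnT over EW -0.40, the latter -0.08 without LNnT1 and LNnT2.

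Among single defensins Defa24 measured 335, 263, 262, 328 and 413 CPM in EW+HMOs, 213, 1657, 476, 286 and 282 CPM in EW+2'-FL and 147, 182, 284, 412 and 314 CPM in EW+LNnT. Apart from FL2 these lay within the control range. Defa30 measured 204, 154, 160.1, 202 and 239 CPM in EW+HMOs, 110.2, 1045, 284, 179.9 and 169.8 CPM in EW+2'-FL and 73.8, 89.5, 177, 251 and 179 CPM in EW+LNnT. Defa17 had 189, 138, 144, 192 and 219 CPM in EW+HMOs, 95.3, 786, 251, 158 and 151 CPM in EW+2'-FL and 69.9, 97.8, 143, 203 and 151 CPM in EW+LNnT. Both had FL2 far above, and FL1, LNnT1 and LNnT2 at the low end, of the supplemented libraries.

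Defa3 had 177, 131, 135, 180.2 and 203 CPM in EW+HMOs, 82.6, 738, 233, 148 and 144 CPM in EW+2'-FL and 65.1, 91.3, 136, 193 and 143 CPM in EW+LNnT, with the same libraries high and low. Defa34 had 34.4, 21.3, 20.7, 30.4 and 34.4 CPM in EW+HMOs, 32.01, 172, 32.3, 28.1 and 30.03 CPM in EW+2'-FL and 26.3, 29.3, 22.1, 30.0 and 20.8 CPM in EW+LNnT. FL2 stood far above the other supplemented libraries. Defa35 had 0.476, 0.401, 0.459, 0.684 and 0.721 CPM in EW+HMOs, 1.87, 5.34, 0.423, 0.479 and 0.928 CPM in EW+2'-FL and 1.07, 1.12, 0.583, 0.744 and 0.822 CPM in EW+LNnT, and FL1 and FL2 were its high libraries.

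Between the single oligosaccharides, fucosylated 2'-fucosyllactose and unfucosylated lacto-N-neotetraose, all 37 estimates of EW+LNnT minus EW+2'-FL were negative, with a median of -0.90 against -0.02 over all genes. Without FL2 the median of the 37 was -0.19. None passed in edgeR, DESeq2 or voom, beside 0% of all genes called in edgeR. At an unadjusted p under 0.05 there were 17 of the 37, beside 8.51% of all genes, in a fit that holds FL2. Intervals were -1.14 to -0.09 for Pla2g2a (-0.62 ± 0.25; adjusted p = 0.521), -1.07 to 0.22 for Mmp7, -1.18 to 0.29 for Lyz1 and -1.74 to -0.13 for Defa24. For the summed defensins the log2 ratio of the means was -1.13, and -0.25 without FL2. This was the 1 pair of compounds compared, and whether their doses matched is not given in the sources used here.

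**Figure D4:**
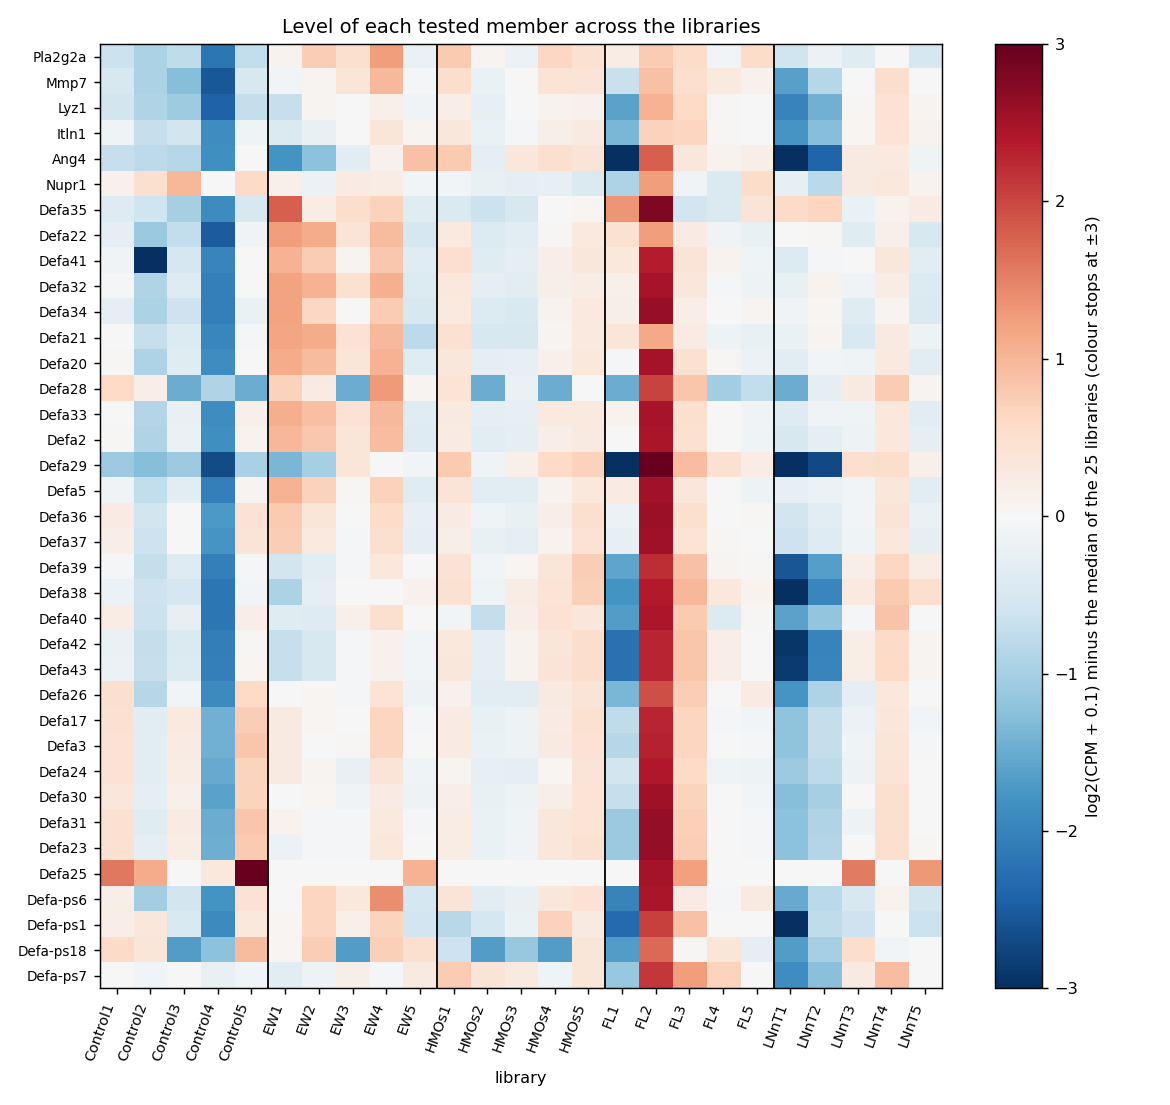
Level of the 37 tested genes in each library as log2(CPM + 0.1) minus the median of the gene over the 25 libraries (colour limited to 3 in either direction). FL2 is high in nearly all defensins, Control4 is low, and LNnT1, LNnT2 and FL1 are low in Ang4, Lyz1 and the minus-strand defensins.

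Set against suckling, each supplemented group again had higher Pla2g2a. These comparisons share the 5 control libraries with each other and with EW minus control, so their values are given side by side and not as repeats. Pla2g2a rose by 1.48 ± 0.26 in EW+HMOs (adjusted p = 0.0028), by 1.42 ± 0.26 in EW+2'-FL (0.00379) and by 0.80 ± 0.26 in EW+LNnT (0.0457) on the log2 scale. The last call is at the edge of the threshold and was lost in 26 of 38 other settings or fits without 1 library. Mmp7 rose by 1.36 ± 0.32 in EW+HMOs (adjusted p = 0.0263) and 1.3 ± 0.32 in EW+2'-FL (0.0269), and had 0.88 ± 0.31 in EW+LNnT (0.0726), which did not pass. No direct comparison between early-weaned groups passed for Mmp7.

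In EW+HMOs 2 of the 37 genes (5.41%) rose and none fell, beside 0.917% of all genes called higher and 0.935% called lower, and the median change was 0.62. In EW+2'-FL 4 (10.8%) rose and none fell, beside 1.07% higher and 1.48% lower, with a median of 1.15: Pla2g2a, Mmp7, Defa34 (1.7 ± 0.42; adjusted p = 0.0292) and Defa35 (2.29 ± 0.57; 0.0304). Without FL2 the Defa34 and Defa35 changes were 0.91 and 1.51, with adjusted p of 0.0748 and 0.0732, so both calls ended. In EW+LNnT 1 rose and none fell, a share of 2.7% that does not stand above the 6.68% of all genes called higher, with 3.93% lower. Medians over all genes were -0.03, 0.05 and 0.00 in the 3 comparisons.

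When the mean of the 4 early-weaned groups was set against control, 6 of the 37 genes rose and none fell, a share of 16.2% beside 3.63% of all genes called higher and 4.05% lower. They were Pla2g2a (1.32 ± 0.22; adjusted p = 0.000785), Mmp7 (1.22 ± 0.27; 0.00775), Defa22 (1.11 ± 0.29; 0.0226), Lyz1 (1.03 ± 0.30; 0.0388), Defa35 (1.59 ± 0.49; 0.0452) and Defa34 (1.13 ± 0.35; 0.047). Of these calls, that of Defa35 was lost in 21 of 36 other settings or fits without 1 library, that of Defa34 in 22 of 37 and that of Lyz1 in 16 of 37, against 6 of 37 for Defa22 and 1 of 37 each for Pla2g2a and Mmp7. Pla2g2a was the 1 gene of the 37 that was higher in all 20 early-weaned libraries than in any control, as were 0.176% of all genes tested. With a covariate for the Y-linked share, which differs between the groups, 3 of the 37 passed, and the adjusted p was 0.0062 for Pla2g2a, 0.0412 for Mmp7, 0.0565 for Defa22 and 0.113 for Lyz1. The Xist libraries alone (4 controls and 7 early-weaned libraries) leave 1 EW and 1 EW+2'-FL library. No call is read from that fit, in which Pla2g2a had a log2 change of 1.32. Without FL2 11 of the 37 passed, and without Control2, Control3 or Control4 2 did. The share of all genes called in these refits is not given, so their counts do not show a result particular to the 37.

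Genes that build and maintain Paneth cells were read beside their products, from a list of 16 transcription factors, receptors and secretory factors including Sox9, Atoh1, Spdef, Gfi1, Xbp1, Ephb3 and Tcf7l2. None of the 16 passed between EW and control or for the mean of the 4 early-weaned groups in edgeR, with medians of 0.04 and 0.06 and 1 unadjusted p under 0.05 in each, beside 14% and 24.6% of all genes. Their summed level was 526.1 to 586.2 CPM in the controls and 466.2 to 560.8 in EW. Several of them are known to act in goblet or stem cells too. Of the paralogs of the 6 non-defensin genes, 10 were tested, none passed between EW and control, and 2 fell for the mean of the 4 groups, Ang (-0.67 ± 0.14; adjusted p = 0.00537), a ribonuclease of the Ang4 family, and the matrix metalloprotease Mmp2 (-0.56 ± 0.13; 0.00849).

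Single markers of other cells passed for the mean of the 4 groups against control. Of 10 goblet markers, Agr2 (-0.73 ± 0.18), Tff3 (-0.80 ± 0.21) and Zg16 (-0.92 ± 0.25) fell, with adjusted p of 0.0164 to 0.0286, and Retnlb, at 0 in all controls and at most 2.24 CPM elsewhere, rose. The goblet list summed to 4068 to 5772 CPM in the controls and 2367 to 6066 in EW. Of 7 macrophage markers, C1qa (-0.70 ± 0.13), C1qb (-0.62 ± 0.11) and Cd68 (-0.75 ± 0.20) fell, and the list summed to 214.2 to 291.7 CPM in the controls and 147 to 239.2 in EW. Of 9 stem cell markers, 4 had positive and 5 negative estimates, and Lgr5 alone passed (-0.53 ± 0.13; adjusted p = 0.0146). Lgr5 also fell in EW+LNnT against EW (-0.82 ± 0.17; 0.0413). In EW+LNnT the stem list summed lowest in LNnT1, at 253.3 CPM against a group median of 485.5.

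Of 9 absorptive markers, the fatty acid carrier Fabp2 fell (-1.02 ± 0.18; adjusted p = 0.00102) and the disaccharidase Sis rose (1.26 ± 0.25; 0.00412), and of the lists read, Fabp2 was the 1 gene that passed between EW and control (-0.99 ± 0.24; 0.0436). The hormone Sct, of 7 enteroendocrine markers, fell (-0.81 ± 0.15; 0.00139), as did Fabp1 (-0.79 ± 0.18; 0.00935) of 4 markers of the proximal intestine. None of the tuft, mast cell or pancreatic acinar markers passed, and of the ileal markers the 1 tested did not. The part of these shifts in the level of the Paneth products was not tested.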

How the data were processed

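Poly(A) RNA of RIN above 7 was made into dUTP strand-marked libraries, per the labels' protocols. The deposited gene table holds raw counts, whole numbers for 57132 Ensembl genes in 25 libraries, and a second deposited table holds FPKM, which the authors scaled to length and depth, beside the same counts. The submitters' processing notes name cutadapt 1.9, HISAT2 2.2.1, StringTie 2.1.6, DESeq2, edgeR and GRCm39, with no role or order. The annotation release, the counting program and the handling of reads shared by paralogs are not given in the sources used here. No column of per-sample values was left unused (0).

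Counts were tested in R 4.3.3 with edgeR 4.0.16: filterByExpr by group (22131 genes kept), TMM scaling, a robust quasi-likelihood fit over the 25 libraries with a mean for each group, and Benjamini-Hochberg adjustment over all genes tested, with calls at an adjusted p under 0.05. Changes are log2 estimates ± standard error. CPM are counts per M of the library total. FPKM served for levels between genes. Depth was 58.7 to 89.6 M counts per library. In simulated data for EW minus control on 21508 genes, the test recovered 16.4% of 1.5-fold changes, 50.7% of 2-fold changes and 86.4% of 4-fold changes, and 3 of its 105 calls fell on unchanged genes.

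The 45 genes, the lists beside them and the tests were chosen with earlier results of these data known. Values per library are given for Lyz1, Mmp7, Pla2g2a, Itln1, Ang4, Nupr1, the summed defensins, the 4 defensins with the highest mean CPM and every gene called in any comparison. From each of the 13 lists beside the members, called genes are named, up to 4 with the smallest p. Of 117 genes in those lists 96 were in the files. Alternatives were RLE scaling, other filters on low counts, DESeq2 1.42.0, limma 3.58.1 (voom with library weights, and log2 of FPKM plus a pseudocount of 1 or 0.1), the compared groups alone, the replicate number as a block and each library left out. Leaving out the libraries that stood apart, leaving out those with pancreatic transcripts, a Y-linked covariate and the Xist libraries alone were added after the data were seen. Transcripts for the sequence groups came from GENCODE M21, and promoters from RefSeq on GRCm38.p6. Coordinates of genes are those of the files.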

Additional observations from a re-analysis of the deposited data

Results flagged for a closer look

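In 11 of 100 groups of 5 libraries examined, 1 library lay further from the nearest other than Dixon's limit for 5 values (a gap of 0.71 of the range) allows, and chance flags about 1 group in 20. The 100 are not independent, since the sums and the single defensins share their counts. FL2 accounted for 10 of the 11. Its summed defensins were 9561 CPM, against 2776 in the next EW+2'-FL library. Defa24 was at 1657 CPM in FL2 (next 476), Defa30 at 1045 (next 284), Defa17 at 786 (next 251), Defa3 at 738 (next 232.5) and Defa34 at 172 (next 32.3). By sequence group, FL2 held 1141 CPM of the Defa2, Defa20, Defa32 and Defa33 sum (next 279), 4157 of the Defa3, Defa17, Defa23, Defa30 and Defa31 sum (next 1189), 305 of the Defa5 and Defa34 sum (next 61.4) and 691 of the Defa35, Defa36, Defa37 and Defa41 sum (next 158). The other was EW4, with 1012 CPM of the Defa3 group sum, against 801 in the next EW library.

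FL2 also held the most Lyz1 (1998 CPM) and Ang4 (161 CPM) of all 25 libraries, but not the most Pla2g2a. Stem cell markers summed to 1091 CPM in FL2, the highest of the 25. Results for EW+2'-FL that rest on FL2 are given with and without it, and the cause of its level was not tested.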

How the results depend on the processing

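Among 1238 repeats of single-gene results, 1044 kept direction and side of the threshold, 161 lost a call, 12 gained one and 21 changed sign. Every sign change was in Defa24, Defa30, Defa17 or Defa3, which were not called. Without 1 library, Defa24 spanned -0.14 to 0.25, Defa30 -0.19 to 0.22, Defa17 -0.0769 to 0.322 and Defa3 -0.10 to 0.33 in EW minus control, and for the mean of the 4 groups Defa24 -0.042 to 0.35, Defa17 -0.0516 to 0.35 and Defa3 -0.0663 to 0.37. In the Xist libraries alone, EW minus control gave -0.31 for Defa24, -0.14 for Defa30, -0.15 for Defa17 and -0.15 for Defa3. Without the 6 libraries with pancreatic transcripts it gave -0.0438 for Defa24 and -0.0148 for Defa30.

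The number of genes called was 3 in EW minus control, 2 for EW+HMOs, 4 for EW+2'-FL, 1 for EW+LNnT, all against control, and 6 for the mean of the 4 groups. In that order, RLE scaling left these as they were. DESeq2 called 8, 3, 14, 3 and 13, and voom 14, 14, 5, 2 and 20. Without a filter on low counts LNnT had 0 and the mean 3, and with a mean CPM of at least 1 EW+2'-FL had 11. With the 2 groups alone EW+HMOs had 8, EW+2'-FL 1 and EW+LNnT 0. On log2(FPKM + 1) EW+2'-FL had 1 and EW+LNnT 0, and on log2(FPKM + 0.1) EW+HMOs had 1, EW+2'-FL 1 and EW+LNnT 0. With FL1, LNnT1 and LNnT2 left out the first 4 counts were 5, 5, 12 and 4. Without the 6 pancreatic libraries all 5 were 1, 1, 1, 0 and 2. With the Y-linked covariate they were 1 in EW, 1 in EW+HMOs, 0 in EW+LNnT and 3 for the mean. In the Xist libraries alone they were 0, 0, 10, 0 and 0, and EW+LNnT minus EW+2'-FL had 17 of 39, beside 10.3% of all genes. FL2 was the lone EW+2'-FL library there and is assumed to vary like the others, so the 10 and the 17 restate its level. For the changed counts the cause was not tested. For these settings, and for the fits without 1 library below, the share of all genes called is not given. A larger count in such a setting therefore does not show a result particular to the members.

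Without 1 library the counts spanned 1 to 10 in EW (10 without FL2; 1 without Control2, Control3, Control4, EW2 or EW4), 1 to 3 in EW+HMOs (1 without Control3, Control4, HMOs1, HMOs4 or HMOs5), 1 to 8 in EW+2'-FL (8 without FL4 or FL5; 2 without Control5 or FL2; 1 without Control3 or Control4), 0 to 2 in EW+LNnT (2 without FL2; 0 without any control, EW2, EW3, HMOs2, HMOs4, HMOs5, FL3, FL5, LNnT2, LNnT3 or LNnT4) and 2 to 11 for the mean (11 without FL2; 3 without Control1, Control5, EW2, EW3, EW4 or HMOs1; 2 without another control), and 0 to 0 in the comparisons between early-weaned groups. The log2 ratio of summed defensins spanned 0.09 to 0.51 in EW minus control, -0.17 to 0.01, -0.15 to 0.94 and -0.61 to -0.25 for EW+HMOs, EW+2'-FL and EW+LNnT over EW, -1.35 to -0.25 for EW+LNnT over EW+2'-FL and 0.16 to 0.64 for the mean.

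With the replicate number as a block, EW+2'-FL had 2 calls and EW+LNnT 0. Libraries of the same number did not clearly pair. Of the correlations of their deviations, 20 of 50 were over 0.1 (median 0.04), beside 67 of 200 between libraries of unlike number (median 0.004). The predicted genes of the defensin cluster gave no value, since none of the 15 listed symbols was in the files. Changes under 2-fold were mostly out of reach in the simulated data, whose changed genes were drawn at random and not from the members. Among the members, larger estimates in EW minus control also did not pass, such as 2.56-fold in Defa32 and 3.66-fold in Defa35.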
